A study of Mus musculus with 12 samples.

Results

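The Hox genes of paralog groups 4 to 7 were described across sorted neurons of the pontine nucleus, which lies in the hindbrain and passes signals from the cerebral cortex to the cerebellum. The genes were taken by name: Hoxa4, Hoxb4, Hoxc4, Hoxd4, Hoxa5, Hoxb5, Hoxc5, Hoxa6, Hoxb6 and Hoxa7, 10 of the 39 Hox genes and of the 23079 genes in the deposited table. The mice were of strain CD-1 and the stage was E18.5, late in gestation. All cells carried a genetic label, and were microdissected and sorted, with 2000 cells for a replicate. The labels hold 3 groups. Math1tdTomato, the reference (n = 6), is named for tdTomato and for Math1 (Atoh1), which encodes a basic helix-loop-helix protein made in rhombic lip progenitors of these neurons. Hoxa5tdTomato (n = 3) is named for tdTomato and Hoxa5, and its columns name Hoxa5 and cre. Math1Hoxa5-IRES-GFP (n = 3) is named for Math1 and for Hoxa5 joined to GFP, and its columns name Math1 and a Cag lsl Hoxa5 allele. A Hoxa5 label of this kind marks cells by the very gene under study, so the level of Hoxa5 in Hoxa5tdTomato is a check of the label and not a finding. The labels do not say when the Cre acted, how many embryos were pooled, or whether replicates came from separate animals, so p values measure only the spread between these samples.

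Of the reference columns, 3 name creErt2 and 3 name tdT. Total counts were 9973484 to 13302076 in the Hoxa5tdTomato and creErt2 libraries and 22355961 to 29820776 in the tdT and Math1Hoxa5-IRES-GFP libraries. From the words of the names these were treated as 2 sets, set 1 and set 2, though the names do not say which references go with which group, and depth and set cannot be told apart. Markers of pontine and rhombic lip derived neurons summed to 4718 to 5232 CPM in Hoxa5tdTomato and 6488 to 10016 in the other libraries. CPM are counts relative to the library size after TMM scaling. Nfib made up much of this sum, at a mean of 3095 CPM in Hoxa5tdTomato, 5502 in the references and 5432 in Math1Hoxa5-IRES-GFP. Tbr1 was at 0 in all 3 Math1Hoxa5-IRES-GFP libraries, so not every marker was detected in every library.

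Hox genes encode transcription factors that bind DNA through a homeodomain, and they lie in 4 clusters, A to D, on different chromosomes. Genes at the same place in different clusters form a paralog group, and low groups are expressed further towards the head than high groups. Pontine neurons migrate from the rhombic lip of the hindbrain, and the Hox genes a neuron carries reflect where along that lip it arose. Retinoic acid, Pbx and Meis cofactors, and Polycomb and trithorax proteins are known to set and hold Hox expression.

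The members are close copies of each other in the homeobox, which bears on how far reads can be assigned to a single gene. Over the 180 bases of the homeobox, the 10 pairs of members within a paralog group shared 75.0% to 85.6% of bases (median 81.4%), and the 35 pairs from different groups 68.3% to 88.9% (median 75%). The longest identical coding run in any of the 45 pairs was 52 bases, between Hoxb4 and Hoxa6. Hoxa6 and Hoxa7 shared 88.9% of the homeobox and a run of 47 bases. A read that fell wholly in a shared run could have been counted for either gene, and neither the read length nor the rule for such reads is known here.

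In the GRCm38.p6 annotation the A cluster members lie on chromosome 6, minus strand: Hoxa4 at chr6:52189682-52191703, Hoxa5 at chr6:52201754-52204587, Hoxa6 at chr6:52204858-52208672 and Hoxa7 at chr6:52215623-52218573. The B cluster members lie on chromosome 11, plus strand: Hoxb6 at chr11:96292814-96301569, Hoxb5 at chr11:96303512-96306121 and Hoxb4 at chr11:96318267-96321638. The C cluster members lie on chromosome 15, plus strand: Hoxc5 at chr15:103014008-103017429 and Hoxc4 at chr15:103018097-103036856. Hoxd4 lies on chromosome 2, plus strand, at chr2:74721978-74729160, within the span of Hoxd3. In GENCODE M21 the exons of Hoxa5, Hoxa6, Hoxb4, Hoxb6 and Hoxc4 shared 0 bases with exons of another gene. Antisense exons covered 16% of the exonic bases of Hoxa4 and 20.4% of those of Hoxa7, the latter from Hoxaas3, which the deposited table lists as 2700086A05Rik. Hoxb5os covered 3.59% of Hoxb5, Hoxc10 exons 5.37% of Hoxc5, and Hoxd3 and its neighbours 52.3% of Hoxd4. The bases of Hoxc5 shared with Hoxc10, and most of those of Hoxd4, lie on the same strand, where reads cannot be assigned by strand at all. For the antisense overlaps it would take a strand setting, which none of the sources states.

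The RefSeq promoter table (GRCm38.p6) held 6 of the 10 members, Hoxa5, Hoxa6, Hoxa7, Hoxb4, Hoxc4 and Hoxd4. The 250 bases before the start are shown for Hoxa5, which stood higher in Hoxa5tdTomato, and for Hoxb4 and Hoxd4, whose differences did not pass the test there, with the 3 windows free of annotated exons. Both strands were searched for TAATTA (a core homeodomain site), TGATTNAT (a Pbx-Hox site) and AGGTCA (a core site of retinoic acid receptors), and capitals mark matches.
Hoxa5 (chr6:52204588-52204837, minus strand): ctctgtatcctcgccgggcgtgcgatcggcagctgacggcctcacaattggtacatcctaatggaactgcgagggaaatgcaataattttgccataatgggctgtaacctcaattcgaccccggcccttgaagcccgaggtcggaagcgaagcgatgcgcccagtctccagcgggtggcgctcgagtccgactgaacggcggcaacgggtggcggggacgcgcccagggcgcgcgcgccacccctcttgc
Hoxb4 (chr11:96318017-96318266, plus strand): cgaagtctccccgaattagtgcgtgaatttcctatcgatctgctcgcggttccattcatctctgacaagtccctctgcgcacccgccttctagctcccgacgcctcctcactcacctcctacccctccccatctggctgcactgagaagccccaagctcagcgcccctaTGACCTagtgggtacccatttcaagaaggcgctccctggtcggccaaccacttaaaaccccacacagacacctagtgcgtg
Hoxd4 (chr2:74721728-74721977, plus strand): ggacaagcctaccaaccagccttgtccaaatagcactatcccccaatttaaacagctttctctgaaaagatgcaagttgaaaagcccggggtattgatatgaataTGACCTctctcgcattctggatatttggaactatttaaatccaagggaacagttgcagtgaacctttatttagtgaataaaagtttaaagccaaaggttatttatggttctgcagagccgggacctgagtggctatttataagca
AGGTCA, here read on the opposite strand, lay 81 to 76 bases before the start of Hoxb4 and 145 to 140 before that of Hoxd4. The Hoxc4 window, chr15:103034145-103034394, lies within the span of Hoxc4 given above and overlaps an exon of Hoxc4. A match lay 146 to 141 bases before the start used for that window, so it is not upstream of the whole gene. No window of Hoxa5, Hoxa6 or Hoxa7 held any of the 3 motifs, and TAATTA and TGATTNAT were in none of the 6. Of the 32851 promoter windows of this length in the table, 14% held AGGTCA, 4.84% TAATTA and 2.82% TGATTNAT. The GC content of the windows was 63.6% for Hoxa5, 58% for Hoxb4 and 40.4% for Hoxd4.

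Hoxa5, which in the body patterns the respiratory tract and the cervical spinal cord, stood at 127, 222 and 119 CPM in Hoxa5tdTomato replicates 1 to 3. The references whose columns name creErt2 had 8.79, 8.62 and 23.1 CPM, and those that name tdT had 8.06, 4.35 and 32.2. The 3 Hoxa5tdTomato libraries lay above all references. The libraries labelled Math1Hoxa5-IRES-GFP had 9.73, 16.8 and 82.0 CPM, so that replicates 1 and 2 lay within the range of the references and replicate 3 above it. Whether a transcript of the added allele would be counted as Hoxa5 is not known here, so these counts cannot check the label of replicates 1 and 2, and directions drawn for this group rest on the labels. Replicate 3 also had the fewest genes with a count of the 12 libraries, 13074 against 14779 to 16290 in the others.

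**Figure D1:**
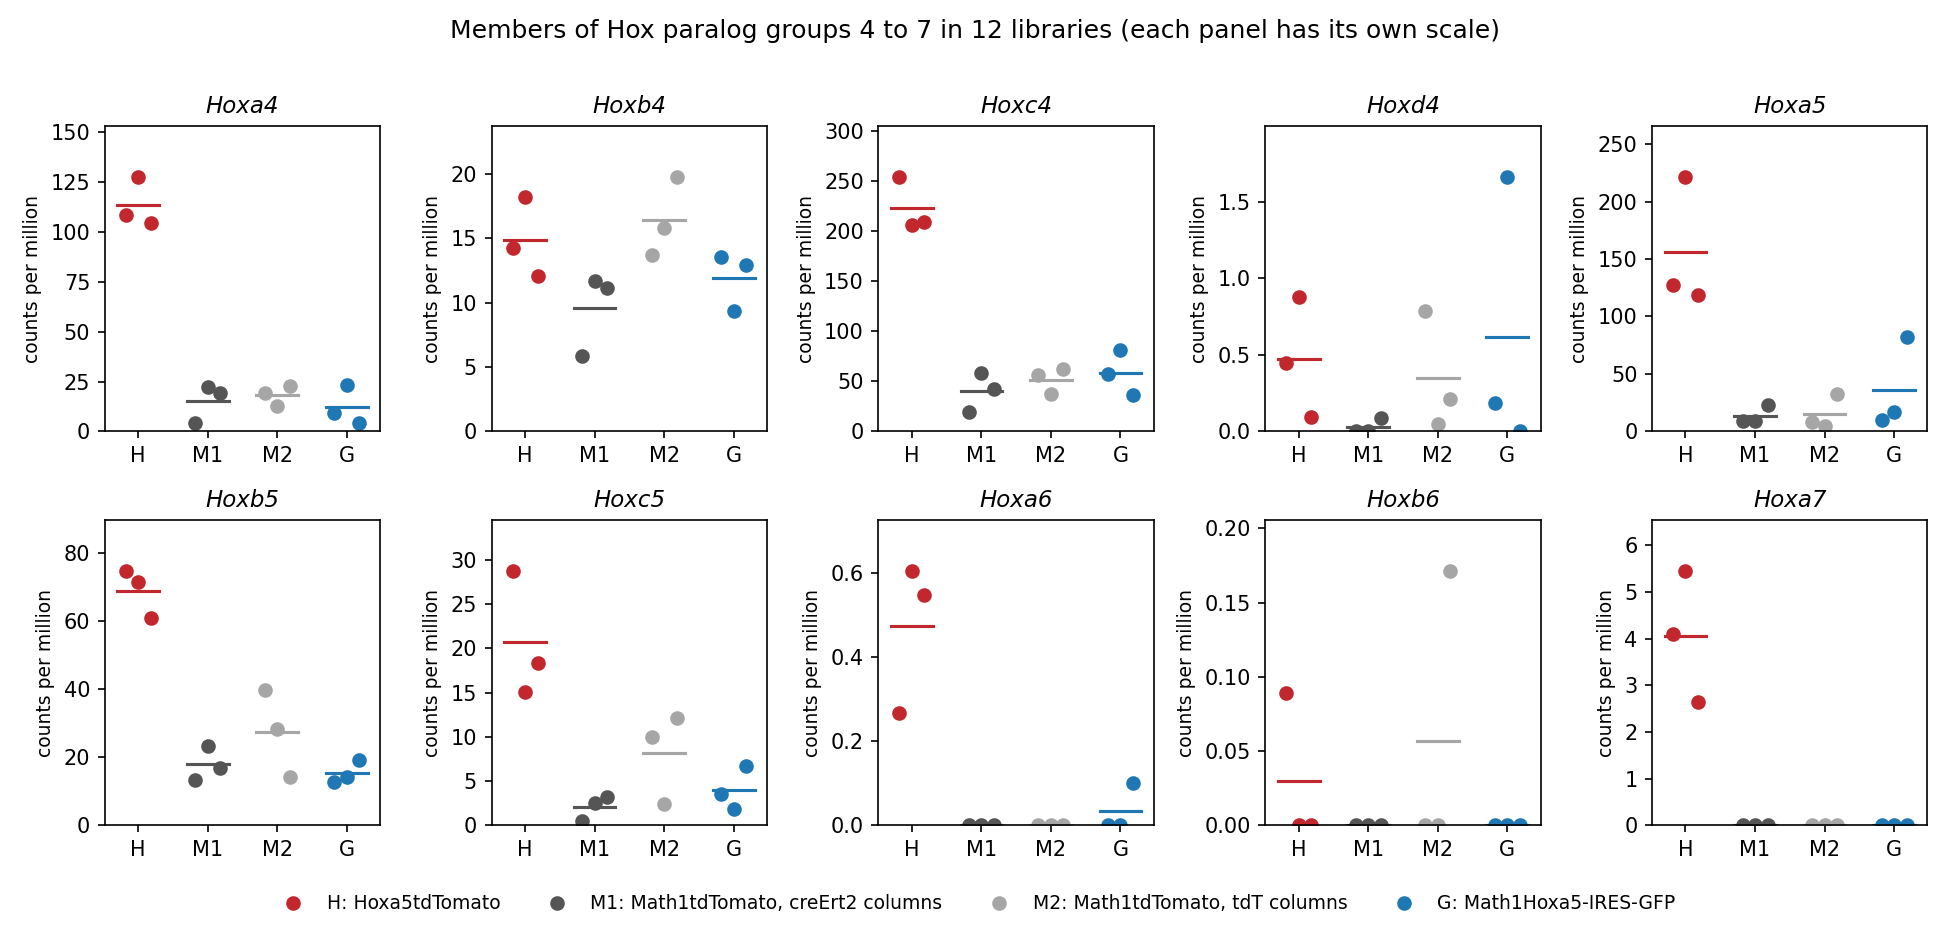
Level of each member in each of the 12 libraries, in CPM on the vertical axis, with 1 point per library and a line at the mean of each group; H is Hoxa5tdTomato, M1 and M2 are the Math1tdTomato references whose columns name creErt2 and tdT, and G is Math1Hoxa5-IRES-GFP. For Hoxa4, Hoxa5, Hoxa7, Hoxb5, Hoxc4 and Hoxc5, the 3 Hoxa5tdTomato points lie above all others, while Hoxb4 overlaps between groups. They also do so for Hoxa6, on few counts.

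The comparison of Hoxa5tdTomato with the references asks how pontine neurons marked by Hoxa5 differ from the wider Math1 population. Members of clusters A, B and C stood higher in Hoxa5tdTomato, among them Hoxa4, Hoxc4 and Hoxb5 with changes of 1.60 to 2.76 on the log2 scale, while Hoxb4 was level with the references. Of the 10 members, 8 passed the filter on low counts, Hoxa7 through its counts in Hoxa5tdTomato alone, and Hoxa6 and Hoxb6 did not pass. With edgeR's quasi-likelihood test, 3 of the 6 members tested other than Hoxa5 and Hoxa7 were called higher (Hoxa4, Hoxb5 and Hoxc4) and 0 lower. Of the 14732 genes tested, 0.842% were called higher and 0.889% lower. Hoxa5 and Hoxa7 were called higher as well, 5 members in all. Hoxa5 is the gene of the label and Hoxa7 passed the filter only where it was high, so their calls are a description. In a count by non-overlap, 6 of the 8 members tested had all Hoxa5tdTomato libraries above all references. Hoxc5 was added to those called, with Hoxa5 and Hoxa7 again a description. Hoxa6, which was not tested, also had its 3 Hoxa5tdTomato libraries above all references, on few counts. There were 0 members with all below, where 7.15% of genes tested lay all above and 6.93% all below. In bulk samples, a different share of cells expressing a gene and a different amount of RNA per cell cannot be told apart.

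Hoxa4, the 3′ neighbour of Hoxa5 among the members of cluster A, was at 109, 128 and 104 CPM in Hoxa5tdTomato. It was at 4.44, 22.5 and 19.0 CPM in the creErt2 references and at 19.5, 12.7 and 22.5 in the tdT references. The groups did not overlap, and the log2 fold change was 2.76 ± 0.44 (SE; edgeR adjusted p = 0.00416). Hoxa7, of a paralog group whose main domain is the thoracic region of the trunk, was at 4.09, 5.45 and 2.65 CPM in Hoxa5tdTomato and had 0 counts in the other 9 libraries. Its 156 counts against 0 in the references put it at least 145-fold higher, against a floor of 3 counts over the group, a limit that covers counting error only. Hoxa6, between Hoxa5 and Hoxa7 on the chromosome, was much lower: 18 counts over the 3 Hoxa5tdTomato libraries (0.267, 0.606 and 0.549 CPM), none in the references and 2 in Math1Hoxa5-IRES-GFP replicate 3. Against the same floor Hoxa6 was at least 16.9-fold higher in Hoxa5tdTomato, without a test.

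In cluster B, Hoxb5, a gene with known roles in neural crest and the enteric nervous system, was at 74.9, 71.5 and 60.9 CPM in Hoxa5tdTomato. The creErt2 references had 13.5, 23.4 and 17.02 CPM and the tdT references 39.7, 28.5 and 14.2. All Hoxa5tdTomato values were above those of the references, with a log2 fold change of 1.60 ± 0.32 (edgeR adjusted p = 0.0171). Hoxb4, best known for its part in blood stem cells, was at 14.2, 18.2 and 12.1 CPM in Hoxa5tdTomato, 5.86, 11.6 and 11.1 in the creErt2 references and 13.7, 15.8 and 19.8 in the tdT references. These ranges overlapped, and the change of 0.19 ± 0.39 did not pass (adjusted p = 0.893). Hoxb6 had 1 count in Hoxa5tdTomato replicate 1 and 4 in tdT replicate 3, and 0 elsewhere, and is not detectable at this depth as a difference.

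In cluster C, Hoxc4 had the highest mean CPM of the members in each group. It stood at 255, 207 and 209.8 CPM in Hoxa5tdTomato, at 19.8, 58.8 and 42.6 in the creErt2 references and at 56.1, 37.5 and 61.9 in the tdT references. The groups lay apart, with a log2 fold change of 2.28 ± 0.29 (edgeR adjusted p = 0.00103). Hoxc5, which acts with Hoxa5 in phrenic motor neurons of the spinal cord, was at 28.7, 15.02 and 18.3 CPM in Hoxa5tdTomato. It was at 0.533, 2.58 and 3.17 CPM in the creErt2 references and at 10.02, 2.40 and 12.2 in the tdT references. Every Hoxa5tdTomato value was above every reference, and the change of 1.99 ± 0.69 missed the threshold (edgeR adjusted p = 0.162). Hoxd4, the lone member from cluster D and a hindbrain gene under retinoic acid control, had at most 1.66 CPM in any library. Its counts summed to 19 in Hoxa5tdTomato, 29 in the references and 41 in Math1Hoxa5-IRES-GFP, with no difference called (log2 1.21 ± 1.52, adjusted p = 0.802).

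Set 1 held the lower-depth libraries, and within it, in a fit of 4 groups, 3 of the members passed: Hoxc4 (log2 2.47, edgeR adjusted p = 0.00424), Hoxb5 (1.94, 0.0273) and Hoxa4 (2.89, 0.0359), where 0.292% of genes tested were called higher and 0.265% lower. Hoxa5 (3.53, adjusted p = 0.0698) and Hoxc5 (3.30, adjusted p = 0.0896) missed the threshold there. Hoxc5 passed when the 6 libraries of set 1 were fitted alone (3.32, adjusted p = 0.000599). Without any 1 of the Hoxa5tdTomato libraries, Hoxb5 was no longer called (adjusted p 0.067 to 0.116). Hoxa5 was not called without Hoxa5tdTomato replicate 2 (3.12, adjusted p = 0.073). Hoxa4 and Hoxc4 passed in each of the 21 other settings run for them, at adjusted p values up to 0.0378 and 0.0142.

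**Figure D2:**
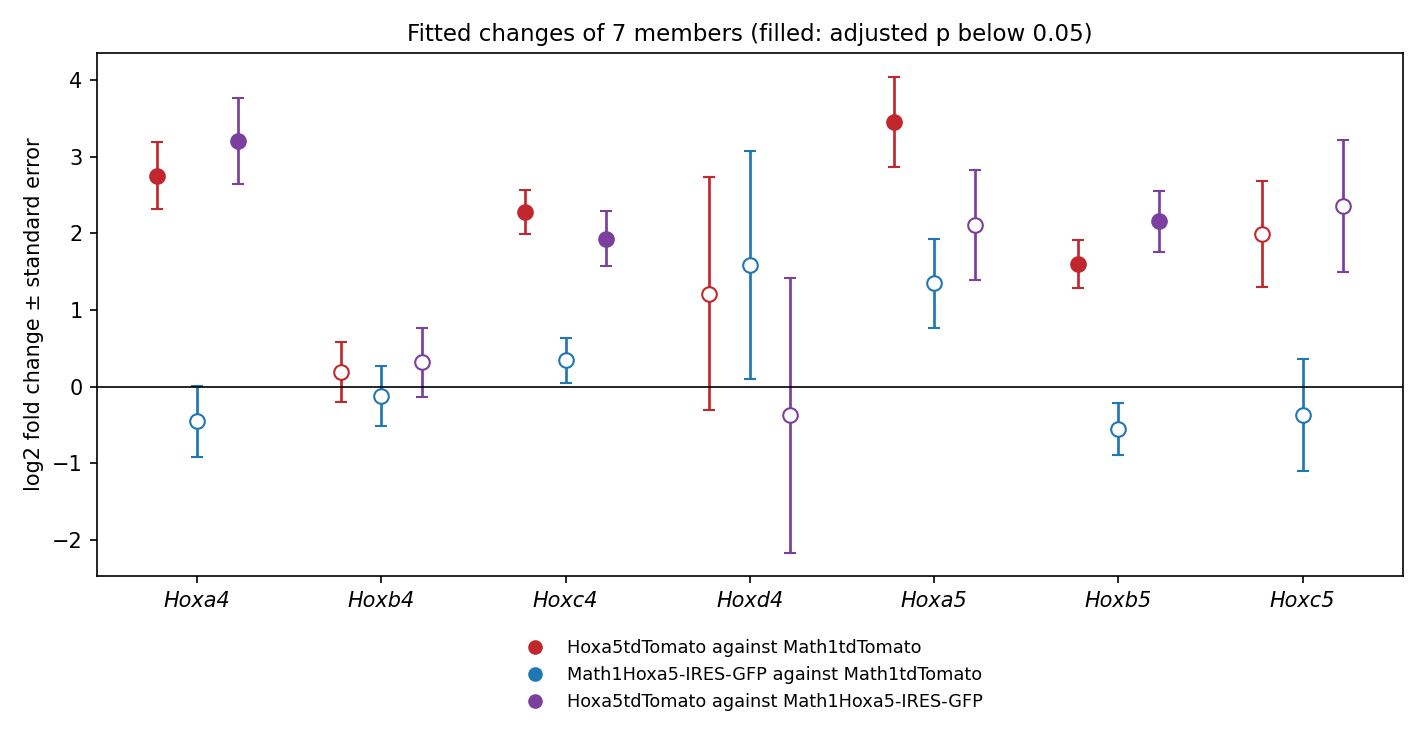
Fitted log2 fold changes of 7 members with counts in every group, on the vertical axis with the standard error as bars, for the 3 comparisons; filled points have an edgeR adjusted p below 0.05. Hoxa4, Hoxc4 and Hoxb5 are filled in both comparisons that involve Hoxa5tdTomato, and no point of Math1Hoxa5-IRES-GFP against the references is filled.

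Markers of vessel cells moved with the Hoxa5tdTomato group. The 12 endothelial markers summed to 93.7 to 175 CPM in Hoxa5tdTomato, 2.58 to 24.5 in the creErt2 references, 1.14 to 19.97 in the tdT references and 0.201 to 45.0 in Math1Hoxa5-IRES-GFP. The 9 markers of pericytes and smooth muscle summed to 116 to 237, 7.29 to 18.4, 2.07 to 27.9 and 5.42 to 65.7 CPM in the same order, and the 7 of meninges and fibroblasts to 39.0 to 79.3, 5.77 to 13.9, 1.46 to 8.06 and 1.68 to 36.02. In Hoxa5tdTomato no endothelial or pericyte marker was at 0, and Dcn was the meningeal marker at 0. Tie1 and Anpep were at 0 in all 3 creErt2 references, Ly6c1, Anpep, Col3a1 and Dcn in all 3 tdT references, and Egfl7, Col3a1, Dcn and Lum in all 3 Math1Hoxa5-IRES-GFP libraries. By edgeR's test, 1 of 11 endothelial markers (Esam), 3 of 8 pericyte markers (Anpep, Abcc9 and Rgs5) and 0 of 4 meningeal markers tested were higher against the references. Of all genes tested, 0.842% were. At an unadjusted p under 0.05 were 10, 7 and 3 of these markers in the same order, beside 14.6% of all genes. Their median log2 changes were 3.36, 3.46 and 3.28. DESeq2 called 0 of the meningeal markers. Within set 1, in the fit of 4 groups, Esam, Anpep, Abcc9 and Rgs5 had edgeR adjusted p values of 0.261 to 0.323, and when the 6 libraries of set 1 were fitted alone all 4 passed, at 7.33e-05 to 0.00194. DESeq2 called 3 endothelial markers (Egfl7, Emcn and Esam) and 2 pericyte markers (Rgs5 and Abcc9) higher. Of 12 pontine markers tested, 3 were lower (Nfib, Nhlh1 and Robo3) and 0 higher, where 0.889% of all genes tested were lower. Of the 21 other settings, Nfib was no longer called in 2, Nhlh1 in 6 and Robo3 in 8. The part of these cells in the Hox differences was not tested.

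The comparison of Math1Hoxa5-IRES-GFP with the references asks what follows in the Math1 lineage when Hoxa5 is meant to be expressed from an added allele. No member was called in either direction by edgeR, where 1.3% of genes tested were higher and 0.543% lower. Of the 8 members tested, 1 had an unadjusted p under 0.05, as did 16.7% of all genes tested. Hoxa5 was that member, at a log2 fold change of 1.35 ± 0.59 (edgeR adjusted p = 0.255), and without replicate 3 it was at -0.10. DESeq2 called 0 of the 7 members for which it gave an adjusted p, and it gave none for Hoxa5. No member separated the 2 groups without overlap, where 3.11% of genes did so upwards and 3.27% downwards.

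Hoxa4, the next member of cluster A on the 3′ side, did not follow the order of Hoxa5 in these libraries. Hoxa4 was at 9.22, 23.1 and 4.41 CPM in replicates 1 to 3, lowest where Hoxa5 was highest, and its change was -0.45 ± 0.46 (edgeR adjusted p = 0.668). Hoxa7 had 0 counts in all 3 libraries, and Hoxa6 had 2 counts, both in replicate 3. Hoxa3, further 3′ in the cluster and not a member, did follow the order, at 94.8, 179 and 203 CPM. So did Hoxa2 (173, 181 and 301 CPM), Hoxb3 on chromosome 11 (134, 217 and 405 CPM) and the member Hoxb5, while Hoxb2 and Hoxd3 did not. The share of all genes in this order was not taken, so the order is not read as particular to Hoxa3 or to cluster A. The change of Hoxa3 against the references was 0.85 ± 0.25, which did not pass by edgeR (adjusted p = 0.0865) and passed by DESeq2 (0.86, adjusted p = 0.0271). Without replicate 1 it also passed by edgeR (1.12, adjusted p = 0.0205). Hoxc4 was at 57.7, 81.7 and 36.3 CPM, again lowest in replicate 3, with a change of 0.34 ± 0.30 (edgeR adjusted p = 0.597). Hoxb5 was at 12.9, 14.3 and 19.3 CPM and Hoxc5 at 3.54, 1.799 and 6.72, both highest in replicate 3. Their changes against all references were -0.56 ± 0.34 (edgeR adjusted p = 0.424) and -0.37 ± 0.73 (0.84). Hoxb4 was at 13.5, 9.35 and 12.9 CPM (-0.13 ± 0.39, adjusted p = 0.905) and Hoxd4 at 0.186, 1.66 and 0 CPM. Hoxd4 rested on replicate 2, with a log2 fold change of 1.59 ± 1.49 with it and -1.05 without it.

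Within set 2 no member was called either, where 0.536% of genes were higher and 0.326% lower, and Hoxb5 alone of the members had an unadjusted p under 0.05, as did 13.7% of all genes (log2 -0.83 ± 0.36, edgeR adjusted p = 0.322). Hoxb4 showed values on opposite sides in the 2 sets: the Hoxa5tdTomato libraries (12.1 to 18.2 CPM) were above all creErt2 references (5.86 to 11.6), and the Math1Hoxa5-IRES-GFP libraries (9.35 to 13.5) were below all tdT references (13.7 to 19.8). The difference between these changes was 1.10 ± 0.59 and did not pass (edgeR adjusted p = 0.669). The share of all genes that lie apart in this way within a set was not taken, so for Hoxb4 this is a description. Between the creErt2 and tdT references themselves no member was called, where 0.713% of genes were higher and 0.624% lower. Hoxc5 alone had an unadjusted p under 0.05, as did 12.9% of all genes, and was lower in the creErt2 libraries by a log2 change of -1.97 ± 0.75 (edgeR adjusted p = 0.261).

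The comparison of Hoxa5tdTomato with Math1Hoxa5-IRES-GFP sets Hoxa5-labelled cells beside cells with the added allele, and shares its libraries with the other comparisons. By edgeR's test, of the 6 members tested other than Hoxa5 and Hoxa7, 3 were higher in Hoxa5tdTomato and 0 lower, where 0.916% of genes tested were higher and 2.43% lower: Hoxa4 (log2 3.21 ± 0.57, adjusted p = 0.0223), Hoxb5 (2.16 ± 0.39, 0.0223) and Hoxc4 (1.93 ± 0.36, 0.023). Hoxa7 was at least 86.3-fold higher against the floor of 3 counts over the group, given as a description. Hoxa5 itself missed the threshold at 2.11 ± 0.72 (edgeR adjusted p = 0.0993), as did Hoxc5 at 2.36 ± 0.87 (0.12). Hoxa5 passed without Math1Hoxa5-IRES-GFP replicate 3 (3.56, adjusted p = 0.0365). The same 6 of the 8 members tested as against the references had no overlap between these groups, Hoxa5 and Hoxa7 again as a description. Of all genes tested, 14.7% did so upwards and 12.9% downwards. Hoxa6, which was not tested, did not overlap either, on few counts. No member was called without any 1 of the 3 Hoxa5tdTomato libraries, at adjusted p values of 0.0805 to 0.13 for Hoxa4, Hoxb5 and Hoxc4. When each group was set against the references of its own set first, the difference between the 2 changes was called for no gene (0% of 14732), while 4 of the 6 members tested other than Hoxa5 and Hoxa7 had an unadjusted p under 0.05, as did 8.02% of all genes. It was 2.77 ± 0.51 for Hoxb5 (edgeR adjusted p = 0.178), 2.29 ± 0.49 for Hoxc4 (0.317), 3.46 ± 0.78 for Hoxa4 (0.362) and 4.33 ± 1.06 for Hoxc5 (0.391).

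Levels of different genes were compared per kilobase of gene length (CPM per kb), with the lengths in the deposited table. In Hoxa5tdTomato, Hoxc4 (87.2 ± 10.4, SD, n = 3), Hoxa5 (83.1 ± 30.3) and Hoxa4 (74.3 ± 8.14) came first and did not differ beyond their spread. Hoxb5 followed at 36.5 ± 3.84, then Hoxc5 at 7.58 ± 2.62 and Hoxb4 at 5.78 ± 1.21, which overlapped in spread, then Hoxa7 at 2.01 ± 0.69, Hoxa6 at 0.678 ± 0.260 and Hoxd4 at 0.184 ± 0.153. In the references, Hoxc4 (17.97 ± 6.26, SD, n = 6), Hoxb5 (12.0 ± 5.34), Hoxa4 (10.98 ± 4.60), Hoxa5 (7.56 ± 5.83) and Hoxb4 (5.06 ± 1.83) formed a series in which each neighbour lay within the spread of the next. Hoxc5 (1.88 ± 1.74) and Hoxd4 (0.0739 ± 0.118) were lower. In Math1Hoxa5-IRES-GFP the order was Hoxc4 (22.8 ± 8.85), Hoxa5 (19.3 ± 21.2), Hoxb5 (8.16 ± 1.77), Hoxa4 (8.02 ± 6.36), Hoxb4 (4.64 ± 0.873) and Hoxc5 (1.47 ± 0.914), with the place of Hoxa5 set by replicate 3.

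By cluster, the 4 A members summed to 160.1 ± 39.2 CPM per kb in Hoxa5tdTomato, 17.2 ± 8.77 in the creErt2 references, 19.9 ± 10.9 in the tdT references and 27.3 ± 17.96 in Math1Hoxa5-IRES-GFP (SD, n = 3 each). Without Hoxa5 the A cluster still ran from 70.4 to 87.2 in Hoxa5tdTomato, against 2.91 to 14.7, 8.30 to 14.8 and 3.03 to 15.1 in the other groups. The 3 B members summed to 42.3 ± 4.69, 13.2 ± 3.73, 20.9 ± 5.49 and 12.8 ± 2.11 in the same order of groups, and the 2 C members to 94.8 ± 13.02, 16.5 ± 8.05, 23.2 ± 6.86 and 24.3 ± 7.96. Hoxd4, for cluster D, stayed between 0 and 0.650 CPM per kb in all libraries. Clusters A, B and C were thus each above all other libraries in Hoxa5tdTomato. By these sums cluster A was apart by the widest ratio of means and B by the narrowest. The sum of A counts Hoxa5, the gene of the label, so this ranking is a description. As a share of all members, cluster A made up 47.7% to 61.0% in Hoxa5tdTomato, 30.5% to 44.3% in the creErt2 references 22.4% to 42.1% in the tdT references and 23.8% to 59.5% in Math1Hoxa5-IRES-GFP, which overlaps Hoxa5tdTomato. Cluster B made up 13.3% to 15.2%, 23.8% to 37.8%, 20.2% to 44.8% and 16.3% to 25.6% in the same order. These shares count Hoxa5, the gene of the label, which raises the share of A and lowers that of B in Hoxa5tdTomato. They are therefore not read as a difference between the groups. Members of a cluster share a locus and are not replicates, so no test was made on these sums.

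**Figure D3:**
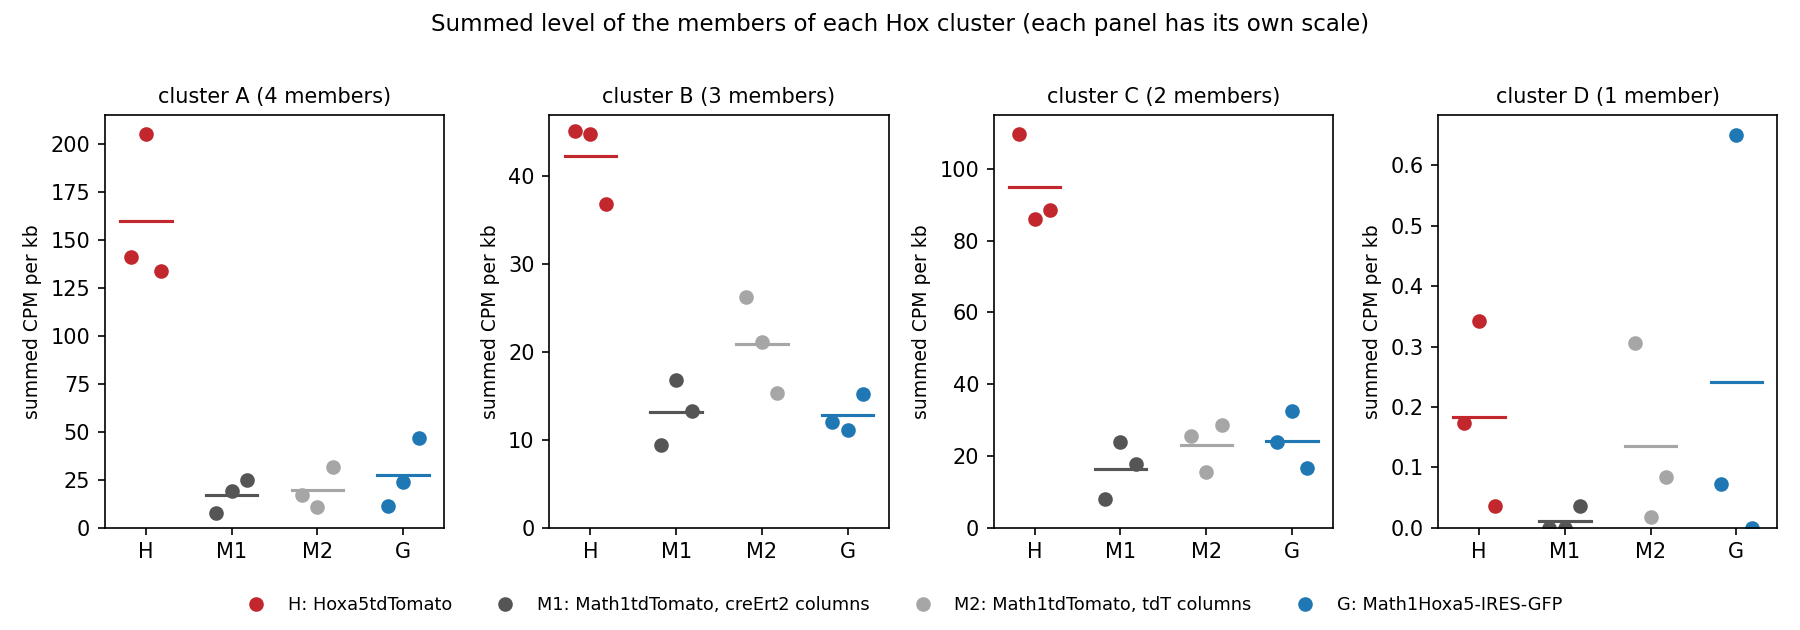
Summed level of the members of each Hox cluster per library, in CPM per kb on the vertical axis with its own scale in each panel; points are libraries, lines are group means, H is Hoxa5tdTomato, M1 and M2 are the creErt2 and tdT references and G is Math1Hoxa5-IRES-GFP. The Hoxa5tdTomato points are above all others in clusters A, B and C, at means of 160.1, 42.3 and 94.8, and cluster D is near 0 in every group.

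Co-variation with Hoxa5 was taken within the 6 references, since the other groups are labelled by Hoxa5. Hoxa5tdTomato stands apart in Hoxa5, while Math1Hoxa5-IRES-GFP overlaps the references. Of the members other than Hoxa5, 5 had counts in all 6 reference libraries. Pearson's r of log2 CPM with Hoxa5 was 0.372 for Hoxa4 (exact permutation p = 0.488), 0.23 for Hoxb4 (p = 0.668), 0.33 for Hoxc4 (p = 0.547), 0.433 for Hoxc5 (p = 0.372) and -0.623 for Hoxb5 (p = 0.19). Spearman's rho was 0.371 (exact permutation p = 0.497), -0.0857 (p = 0.919), 0.371 (p = 0.497), 0.429 (p = 0.419) and -0.771 (p = 0.103) in the same order. None of the 5 passed after adjustment over the 5 relations, with adjusted exact permutation p values of 0.668 each for r and of 0.515 at the lowest for rho, all two-sided. Without tdT replicate 3 and creErt2 replicate 3, the 2 libraries farthest from the median of Hoxa5, r was -0.0773 for Hoxa4, -0.619 for Hoxb4, 0.000286 for Hoxc4, -0.0898 for Hoxc5 and -0.327 for Hoxb5, so the positive values rest on those libraries. Each set holds 3 references, too few for a value of r within it.

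**Figure D4:**
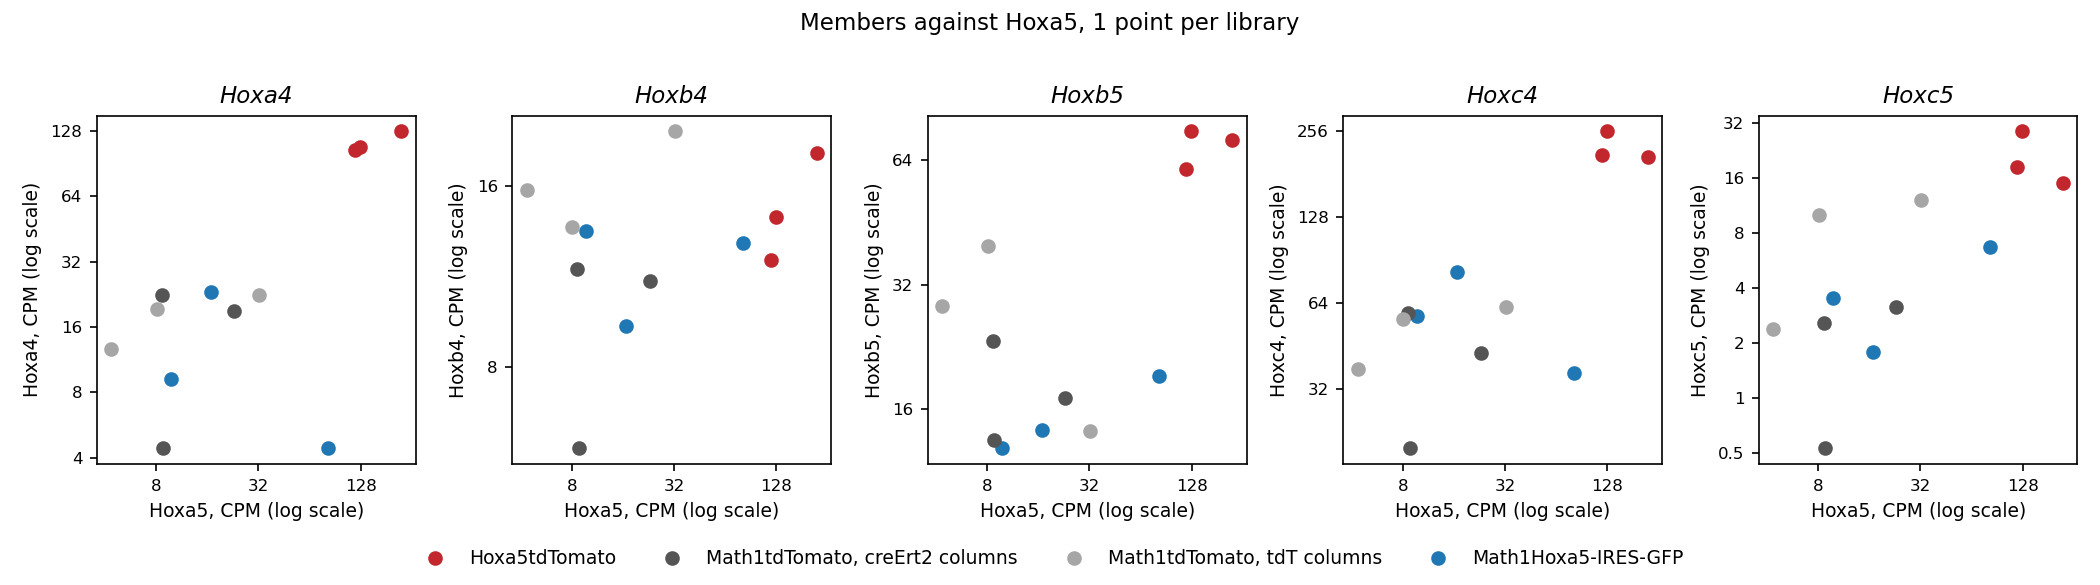
Level of 5 members on the vertical axis against Hoxa5 on the horizontal axis, both in CPM on log scales, with 1 point per library coloured by group. The 3 Hoxa5tdTomato points sit at the upper right for Hoxa4, Hoxb5, Hoxc4 and Hoxc5, and Math1Hoxa5-IRES-GFP replicate 3, at 82.0 CPM of Hoxa5, has 4.41 CPM of Hoxa4.

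Within the groups, Hoxa4 and Hoxc4 had the same order of libraries in 3 of the 4 groups by column name, all but Hoxa5tdTomato, a pair singled out after the values were seen. Among the Hoxa5tdTomato libraries, replicate 2 had the highest Hoxa5, Hoxa4, Hoxa6, Hoxa7 and Hoxb4 and the lowest Hoxc4 and Hoxc5. Over the deviations of all 12 libraries from the means of their 4 column-name groups, r with Hoxa5 was -0.0523 for Hoxa4, 0.404 for Hoxb4, -0.0577 for Hoxc4, -0.196 for Hoxb5 and 0.607 for Hoxc5. The same measure had a median of -0.0713 and a 5th to 95th percentile of -0.729 to 0.68 over the other 14731 genes tested, so each member lay inside the range of the genome. Outside the Hox clusters, the genes whose log2 CPM was most like that of Hoxa5 over the 12 libraries were Tmem14c (r = 0.916), Zfhx3 (0.897), Txn1 (0.889), Fbll1 (0.87) and Rab26os (0.866). For the summed CPM of the other members they were Apol7d (0.913), Cd82 (0.91), Zp3 (0.909), Tbxa2r (0.909) and Ctla2a (0.906). These points share the groups, so the values describe how the groups lie and carry no test.

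Around the members, the other genes of these paralog groups in the table were near the floor: Hoxc6 had 7 counts in Hoxa5tdTomato replicate 3 and 1 in Math1Hoxa5-IRES-GFP replicate 2, and Hoxb7 had 4 counts in all. The 8 genes of paralog groups 1 to 3 gave 6 tested and 0 called by edgeR in each of the 3 comparisons. In Hoxa5tdTomato against the references 2 were at an unadjusted p under 0.05 (14.6% of all genes) and DESeq2 called Hoxb3 lower. Against Math1Hoxa5-IRES-GFP 1 was (22.1% of all genes) and DESeq2 called Hoxb3 lower. In Math1Hoxa5-IRES-GFP against the references 1 was (16.7% of all genes), and DESeq2 called Hoxa3 higher. Next to the members, Hoxa3 was at 0.78 ± 0.25 (edgeR adjusted p = 0.127), Hoxb3 at -1.07 ± 0.34 (0.127) and Hoxd3 at -0.40 ± 0.31 (0.638). Hoxa3 passed when counts were scaled by library size alone (0.94, adjusted p = 0.0495), and both Hoxa3 (0.80, 0.0392) and Hoxb3 (-1.05, 0.0419) when the libraries of these 2 groups were fitted alone. None of the 19 genes of paralog groups 8 to 13 passed the filter. Of 21 noncoding genes of the Hox clusters, 10 were in the table and 1 was tested, the antisense gene 2700086A05Rik (Hoxaas3). It was at 4.45, 4.51 and 6.95 CPM in Hoxa5tdTomato and between 0.885 and 2.07 CPM in the other libraries, with a log2 fold change of 2.07 ± 0.69 that did not pass (edgeR adjusted p = 0.148, DESeq2 adjusted p = 0.0338). Its level did not overlap between these groups. In GENCODE M21 its exons share bases with Hoxa7, and reads there could not be told apart without a strand setting. In RefSeq it ends at chr6:52213597, short of Hoxa7 at chr6:52215623. Which annotation the counts used is not known, so whether reads of the 2 genes were mixed is not known.

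Polycomb group proteins hold Hox genes silent outside their domains. Of 16 listed Polycomb genes, all tested, 0 passed by edgeR in Hoxa5tdTomato against the references, with 4 at an unadjusted p under 0.05 (14.6% of all genes) and 0 called by DESeq2. Their median log2 change was -0.35, beside 0.00489 over all genes tested. The median was -0.11 in Math1Hoxa5-IRES-GFP against the references (all genes -0.00179). It was -0.24 in Hoxa5tdTomato against Math1Hoxa5-IRES-GFP (all genes 0.0206). A shift of the list as a whole was not tested. In Math1Hoxa5-IRES-GFP against the references 0 passed, with 2 at an unadjusted p under 0.05 (16.7% of all genes) and 0 called by DESeq2. Between Hoxa5tdTomato and Math1Hoxa5-IRES-GFP 0 passed, with 3 at an unadjusted p under 0.05 (22.1% of all genes), and DESeq2 called Bmi1 lower.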

How the data were processed

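Per the labels' protocols, SPIA amplification (NuGen Ovation V2) started from RNA of 1000 cells, and TruSeq Nano libraries from 1 ng of the product. The authors deposited raw read counts per gene, with gene lengths and no normalization. The submitters' processing notes name mm10 and bcl2fastq 1.8.4. No aligner, counter, annotation or strand setting is named in the sources used here. Without molecular identifiers, amplified reads cannot be treated as independent molecules.

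Counts were filtered with filterByExpr (minimum count 10), scaled by TMM and tested with edgeR 4.0.16 (R 4.3.3), with 1 mean for each of 3 groups over all 12 libraries. Benjamini-Hochberg adjusted p values over 14732 genes were held against 0.05. Named genes were the 10 members, their neighbours in the clusters, listed regulators, listed markers past the threshold, and the 5 genes most like Hoxa5 or the summed other members outside the clusters. Some of the listed regulators and some sequences are not reported here. The members and lists were chosen with earlier results of these data known. Log2 CPM in correlations used a prior count of 2. Alternatives were another scaling, DESeq2 1.42.0, no filter, 4 groups, fewer libraries and a replicate block. The fit was tested on simulated data. Figures were drawn with matplotlib.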

Additional observations from a re-analysis of the deposited data

Results flagged for a closer look

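In the group of 6 references, Hoxd4 in tdT replicate 1 stood apart from the other libraries, at 0.785 CPM, and so did Hoxb6 in tdT replicate 3, at 0.171 CPM, which is 4 counts. In each case the gap to the nearest library exceeded Dixon's critical share of the group's range. Chance marks about 1 in 20 groups in this way, and the gap of Hoxb6 rests on libraries that are otherwise at 0.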

How the results depend on the processing

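In Hoxa5tdTomato against the references, 5 members were called, Hoxa5 and Hoxa7 included. The count was 3 with the references split by column name and 2 to 5 when leaving out each library in turn, lowest without Hoxa5tdTomato replicate 2. In Hoxa5tdTomato against Math1Hoxa5-IRES-GFP it was 4, 0 with 4 groups (the difference of the changes within each set), with or without a block, and 0 to 4 when leaving out libraries. In Math1Hoxa5-IRES-GFP against the references it was 0 in all 21 settings. Same-numbered libraries deviated together at r of -0.0289 to 0.0493, so the numbers were not taken to pair them. With the replicate number as a block, 4, 0 and 4 members were called, and 189, 189 and 114 of all genes against 255, 271 and 493 without it. Counts over all genes ran from 36 to 965, 14 to 831 and 0 to 1484 over the settings. DESeq2 gave no adjusted p for Hoxa5. Cluster B in Hoxa5tdTomato moved from 42.25 to 46.98 CPM per kb with library size alone. Signs turned for Hoxd4, by 4 groups (2.89) or 4 groups with a block (3.19 and, against the references, -0.18) and on leaving out 1 library (-1.18 to 2.26 between these groups, -1.05 to 2.90 in Math1Hoxa5-IRES-GFP against the references). On leaving out 1 library they also turned in Math1Hoxa5-IRES-GFP against the references for Hoxa5 (-0.10 to 1.797), Hoxb4 (-0.28 to 0.035) and Hoxc5 (-0.96 to 0.09), for Hoxb4 in its r with Hoxa5 (-0.289 to 0.564), and for Hoxd3 with 4 groups (0.0037) or set 1 alone (0.028). The cause was not tested. Hoxa6, Hoxb6 and Hoxd4 rest on few counts.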
